A study of Mus musculus with 8 samples.

Results

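Antibody light chains come in 2 forms, kappa and lambda. The genes described here are the kappa constant gene Igkc and 6 genes of the lambda locus, the constant genes Iglc1, Iglc2 and Iglc3 and the variable genes Iglv1, Iglv2 and Iglv3. These 7 genes were taken by name, as the rows whose Ensembl identifier maps to them, out of 54532 genes in the count table. RNA of bone marrow B cells was sequenced from ovariectomized mice (OVX) and sham-operated mice (Sham), with 3 libraries per group. Ovariectomy takes away the main source of estrogen, and the B cells were isolated with magnetic beads. Genotype, strain and age of the sequenced mice, and whether each library came from 1 mouse, are not given in the labels, so that p-values measure only the spread between these libraries.

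An antibody and the B cell receptor each hold heavy chains paired with light chains. A developing B cell first pairs its new heavy chain with a surrogate light chain, then opens and recombines its kappa locus, and turns to the lambda locus mainly when kappa fails or gives a self-reactive receptor. A rearranged light chain transcript joins 1 variable, 1 joining and 1 constant segment, and plasma cells, which secrete antibody, make this transcript in very large amounts. In the mouse the lambda locus is small, and kappa is by far the more common light chain.

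Igkc (ENSMUSG00000076609) is the only constant gene of the kappa locus and lies at 70726435 to 70726754 on chromosome 6 (mm10, RefSeq annotation of GRCm38.p6), annotated as a C region of 320 bases. The lambda genes lie on chromosome 16 and form 2 blocks in this annotation. The first holds Iglc1 (ENSMUSG00000105906) at 19061752 to 19062071, Iglc3 (ENSMUSG00000105547) at 19065365 to 19065681 and the V segment Iglv1 (ENSMUSG00000076934) at 19085017 to 19085460. The second holds Iglc2 (ENSMUSG00000076937) at 19198536 to 19198852, Iglv3 (ENSMUSG00000076939) at 19241208 to 19241679 and Iglv2 (ENSMUSG00000076940) at 19260403 to 19260844. Iglv1 is usually joined to Iglc1 or Iglc3, and Iglv2 and Iglv3 to Iglc2. The sequences of the lambda constant genes resemble each other closely, Iglc2 and Iglc3 most of all, so their reads could have been split or shared in the authors' counting, and the levels of the single genes are uncertain to that extent.

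Values of single libraries are given below in the order of replicates 1, 2 and 3. The libraries held between 23838775 and 33136701 counted reads, of which the 7 genes took between 0.264% in Sham replicate 1 and 0.431% in Sham replicate 2. All 7 passed the filter on low counts, which kept 15305 genes. As a check of the label, the B cell receptor gene Cd79a had 1548 to 1883 CPM (the usual depth-normalised read count, scaled by edgeR's TMM factors) in the 6 libraries, while 10 T and NK cell genes together held at most 0.00485% of the counts. Marker genes of other cells were found to differing extents. For 12 neutrophil genes the share was 0.931% in Sham replicate 3, where 12 general B cell genes held 1.12%, and 0.109% to 0.403% elsewhere. Genes of B cell stages also differed between libraries, as described below. In such bulk samples, fewer cells of a type and less RNA per cell cannot be told apart.

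No light chain gene was called different between OVX and Sham at an adjusted p-value under 0.05 (edgeR's quasi-likelihood fit, Benjamini-Hochberg adjustment over the 15305 genes), where 0% of all genes tested were called. By DESeq2 and limma-voom too, 0 of the 7 were called. In the fit, OVX over Sham gave a log2 fold change below 0 for 6 of the 7 genes, against 51.8% of all genes tested, with a median of -0.26 against -0.0081 for all genes. The 7 genes are not independent, so these 6 are not separate observations. Pearson's r of the log2 levels was 0.92 for Iglc1 with Iglc2 and 0.41 for Iglc1 with Igkc. The 3 lambda variable genes had an unadjusted p-value under 0.05, each lower in OVX. Of all genes tested 3.75% had such a p-value, 2.28% lower and 1.47% higher in OVX. Igkc and the 3 lambda constant genes had none. By DESeq2 and by limma-voom 2 of the 7 genes passed it. This count rests on single libraries, as 1 gene had such a p-value when replicate 2 or 3 of Sham, or replicate 1 or 3 of OVX, was left out, 4 had it without Sham replicate 1 and 5 without OVX replicate 2.

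Igkc was the most abundant light chain gene in every library. It had 1749, 3101 and 2586 CPM in the Sham libraries and 2084, 2105 and 1890 CPM in the OVX libraries. The OVX libraries lay close together, inside the wide range of the Sham libraries, so that the groups overlapped. The level was 2026 ± 119 CPM for OVX against 2479 ± 682 for Sham (SD, n = 3 each), and the log2 fold change was -0.29 with a standard error (SE) of 0.20 (95% interval -0.75 to 0.17, adjusted p of 0.811 by edgeR). An exact permutation test of the log2 levels (two-sided) gave p = 0.4, and 0.1 is the smallest p possible with 3 and 3 libraries. Without Sham replicate 2, the highest library, the log2 fold change was -0.10, and without Sham replicate 1, the lowest, it was -0.49.

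**Figure D1:**
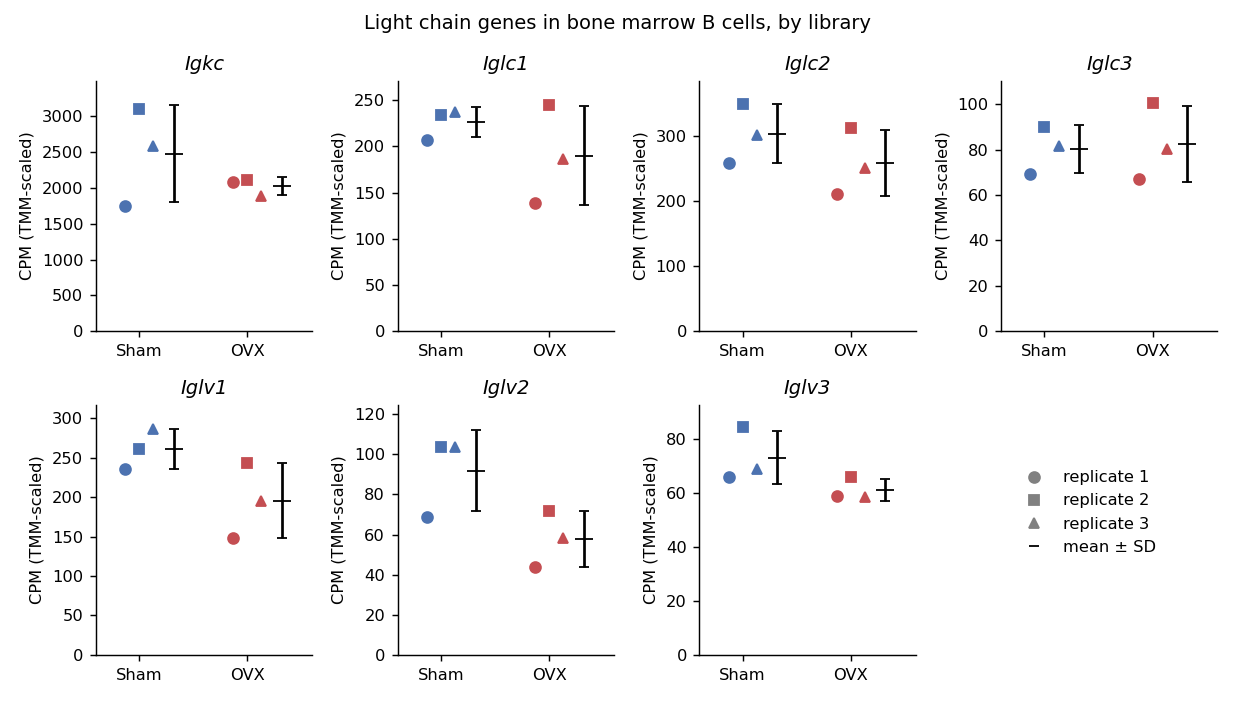
Level of each light chain gene in CPM (scaled by TMM factors, linear axis from 0) in the 3 Sham libraries (blue) and 3 OVX libraries (red), with the mean ± SD of each group in black. The groups overlap for Igkc, at 1749 to 3101 CPM in Sham and 1890 to 2105 in OVX, and OVX replicate 1 is the lowest library for Iglc1, Iglc2, Iglc3, Iglv1 and Iglv2.

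The lambda constant genes encode the fixed part of the lambda chain and were all far below Igkc. Iglc2 had 258, 349 and 302 CPM in the Sham libraries and 211, 312 and 251 CPM in the OVX libraries. Iglc1 had 207, 234 and 237 CPM in the Sham libraries and 138, 245 and 186 CPM in the OVX libraries. Iglc3 had 69.2, 89.9 and 81.7 CPM in the Sham libraries and 67.0, 100 and 80.3 CPM in the OVX libraries. For each of them OVX replicate 1 was the lowest library, OVX replicate 2 was among the 2 highest, and the groups overlapped. Their log2 fold changes were -0.23 for Iglc2 (standard error 0.16), -0.25 for Iglc1 (0.19) and 0.040 for Iglc3 (0.16). For Iglc3 the sign was not stable: its log2 fold change was 0.17 without OVX replicate 1 but below 0 without Sham replicate 1, without OVX replicate 2 and with scaling on general B cell genes. Without OVX replicate 1 the values of Iglc2 and Iglc1 were -0.10 and -0.066.

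The lambda variable genes encode the antigen-binding part of the chain. Iglv1 had 236, 261 and 287 CPM in the Sham libraries and 148, 243 and 196 CPM in the OVX libraries. Iglv2 had 68.6, 103 and 104 CPM in the Sham libraries and 43.9, 71.9 and 58.2 CPM in the OVX libraries. Iglv3 had 66.1, 84.6 and 69.1 CPM in the Sham libraries and 59.1, 66.0 and 58.6 CPM in the OVX libraries. For Iglv1 and Iglv2 only OVX replicate 2 reached into the Sham range, above Sham replicate 1. For Iglv3 every OVX library was lower than every Sham library, by a narrow gap (exact permutation p = 0.1, two-sided, the smallest possible). Of all genes tested 4.12% had such a separation downwards and 4.33% upwards, and none of the 7 genes had the latter. Iglv2 had the largest difference of the 7 genes, with 58.0 ± 14.0 CPM for OVX against 91.9 ± 20.1 for Sham (SD, n = 3 each) and a log2 fold change of -0.66 (SE 0.22, 95% interval -1.17 to -0.16, unadjusted p = 0.0171, adjusted p of 0.811 by edgeR). Iglv1 followed with -0.42 (standard error 0.17) and Iglv3 with -0.26 (0.11), with unadjusted p-values of 0.0472 and 0.0462 and the same adjusted p-value. The 3 genes are not independent of each other, as they share a locus and their libraries. When 1 library was left out Iglv2 ranged from -0.85 without OVX replicate 2 to -0.50 without OVX replicate 1, with no adjusted p-value under 0.05.

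Levels of different genes were compared per kilobase of the annotated gene, over the 6 libraries. Igkc had a mean of 7039.5 CPM per kilobase, followed by Iglc2 with 884, Iglc1 with 649.6 and Iglc3 with 257 CPM per kilobase. Among the variable genes, whose annotated span includes the leader intron, Iglv1 had 514 CPM per kilobase, Iglv2 169.6 and Iglv3 142. Iglc2 held more reads than Iglc1 in every library, with a ratio from 1.25 to 1.52. Iglv2 and Iglv3 could not be put in order, since the ratio of their reads ran from 0.744 to 1.50. Across the 6 libraries the highest level was 2.36 times the lowest for Iglv2, 1.94 times for Iglv1 and 1.77 times for Igkc and for Iglc1, down to 1.44 times for Iglv3.

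The ratio of kappa to lambda reads compares both light chains within a library and needs no scaling between libraries. It was taken as the reads of Igkc over the summed reads of Iglc1, Iglc2 and Iglc3, and was 3.27, 4.61 and 4.17 in the Sham libraries and 5.01, 3.20 and 3.65 in the OVX libraries. The highest and the lowest ratio were both in OVX libraries. Its mean was 3.96 ± 0.939 for OVX against 4.02 ± 0.684 for Sham (SD, n = 3 each), a log2 difference of -0.034 with a standard error of 0.24 (exact permutation p = 0.9). Thus no difference in the ratio was detected with 3 libraries per group, which does not show that the ratios were equal.

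As a share of these constant gene reads, lambda took 23.4%, 17.8% and 19.3% in the Sham libraries and 16.6%, 23.8% and 21.5% in the OVX libraries. The mean share was 20.6% ± 3.65 for OVX against 20.2% ± 2.90 for Sham (SD, n = 3 each). Each share rests on at least 10214 lambda reads, and the 95% Wilson intervals were narrow, for example 16.4% to 16.9% in OVX replicate 1 and 23.5% to 24.1% in OVX replicate 2. The libraries of a group therefore differed by far more than counting error, which is all that such an interval covers. OVX replicate 1, with the lowest lambda share, had the fewest lambda reads of all libraries, whereas its Igkc level was in the middle of the range.

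**Figure D2:**
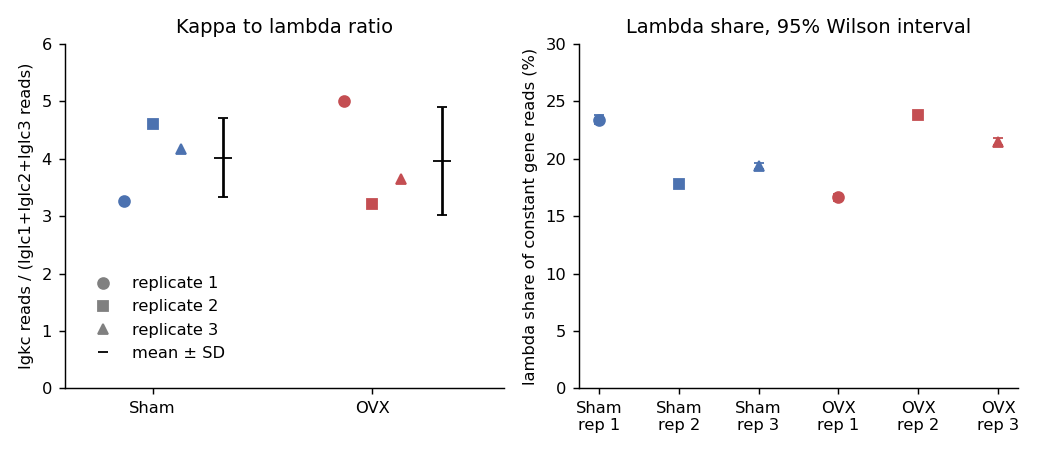
Left, reads of Igkc over summed reads of Iglc1, Iglc2 and Iglc3 in each library (Sham blue, OVX red), with mean ± SD in black. Right, lambda share of the same reads in percent with 95% Wilson intervals, most of them smaller than the symbol, from 16.6% in OVX replicate 1 to 23.8% in OVX replicate 2.

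Counting the variable genes in place of the constant genes gave a like ratio. All 160 Igkv genes over the 3 Iglv genes gave 3.56 to 5.11 in Sham and 3.60 to 5.74 in OVX, again with Sham replicate 1 and OVX replicate 2 at the low end and OVX replicate 1 at the top. The means were 4.48 ± 1.11 for OVX against 4.18 ± 0.816 for Sham (SD, n = 3 each), a log2 difference of 0.089 (exact permutation p = 0.6).

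Within the lambda locus the order of the constant genes was Iglc2, Iglc1 and Iglc3 in every library. Iglc2 gave 47.4% to 51.9% of the lambda constant reads, Iglc1 33.3% to 38.8% and Iglc3 12.9% to 16.1%. The ratio of Iglc1 to Iglc2 plus Iglc3 was 0.552 ± 0.0488 for OVX against 0.594 ± 0.0542 for Sham (SD, n = 3 each; exact permutation p = 0.4). The ratio of Iglv2 plus Iglv3 to Iglv1, which sets the variable genes of the second block beside that of the first, was 0.620 ± 0.0682 for OVX against 0.632 ± 0.0795 for Sham (p = 0.7 in the same exact test). Neither ratio differed beyond its spread.

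The ratio of Iglc2 to Iglc3 was far steadier within each group. It was 3.73, 3.88 and 3.70 in the Sham libraries and 3.14, 3.11 and 3.13 in the OVX libraries, with means of 3.77 ± 0.0959 in Sham and 3.13 ± 0.0172 in OVX (SD, n = 3 each). Thus every OVX library lay below every Sham library, and the gap was several times the spread within Sham. The OVX libraries lay closer together than the counting intervals given next, so their spread is no measure of the gap. Iglc3 made up 21.1%, 20.5% and 21.3% of the reads of both genes in Sham and 24.1%, 24.3% and 24.2% in OVX, and the 95% Wilson intervals reached up to 22.1% in Sham and down to 23.1% in OVX. Because the reads of these similar genes may be shared, this ratio is given as a description without a test, and the part of read assignment in it was not tested. Iglc3 over Iglc1 was also higher in every OVX library, at 0.409 to 0.484 against 0.334 to 0.385 in Sham, whereas Iglc2 over Iglc1 overlapped, at 1.27 to 1.52 in OVX and 1.25 to 1.49 in Sham. For other pairs of similar genes the groups overlapped, as for the surrogate light chain genes Vpreb1 over Vpreb2, with 7.61 to 9.04 in OVX and 5.70 to 8.66 in Sham. Hba-a1 over Hba-a2, a pair of alpha globin genes, had 5.51 to 7.04 in OVX and 6.31 to 9.34 in Sham. Both pairs were chosen after the values of Iglc2 and Iglc3 were seen, and the ratios to Iglc1 alone were not planned or tested.

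Relative to the constant genes to which they are joined, Iglv1, and the sum of Iglv2 and Iglv3, had fewer reads in each OVX library than in any Sham library. Iglv1 over Iglc1 plus Iglc3 was 0.853, 0.805 and 0.900 in the Sham libraries and 0.720, 0.705 and 0.735 in the OVX libraries. Iglv2 plus Iglv3 over Iglc2 was 0.522, 0.540 and 0.572 in the Sham libraries and 0.489, 0.442 and 0.465 in the OVX libraries. In both blocks of the locus every OVX library was thus lower than every Sham library. The log2 differences were -0.24 with a standard error of 0.049 for the first ratio and -0.23 with a standard error of 0.057 for the second. In an exact permutation test (two-sided, like those above and below) each reached p = 0.1, the smallest that 3 libraries against 3 allow, and an adjusted p of 0.2 over the 4 ratios compared within the lambda locus, so that neither could pass a threshold of 0.05. Leaving out any 1 library gave -0.28 to -0.20 and -0.26 to -0.19. No share of all genes can be set beside these ratios, and how read assignment or the makeup of the libraries bears on them was not tested.

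In the second block the groups were separated for Iglv2 and overlapped for Iglv3, and the difference between both genes was not tested. Iglv2 over Iglc2 was 0.266, 0.297 and 0.343 in the Sham libraries and 0.209, 0.231 and 0.232 in the OVX libraries, whereas Iglv3 over Iglc2 overlapped, with 0.229 to 0.256 in Sham and 0.212 to 0.281 in OVX. For the kappa locus the same kind of ratio, all Igkv reads over Igkc, was 0.755, 0.739 and 0.689 in the Sham libraries and 0.691, 0.652 and 0.680 in the OVX libraries. It was 0.674 ± 0.0198 for OVX against 0.728 ± 0.0341 for Sham (SD, n = 3 each), and the groups overlapped by 1 library (exact permutation p = 0.2). Over both blocks of the lambda locus, the summed Iglv reads per lambda constant read were 0.693, 0.668 and 0.740 in the Sham libraries. In the OVX libraries they were 0.603, 0.580 and 0.604, without overlap (exact permutation p = 0.1, the smallest possible). This ratio sums the same reads as the planned ratios of the blocks and is not independent of them. All ratios of this paragraph were added after the lambda ratios were seen.

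**Figure D3:**
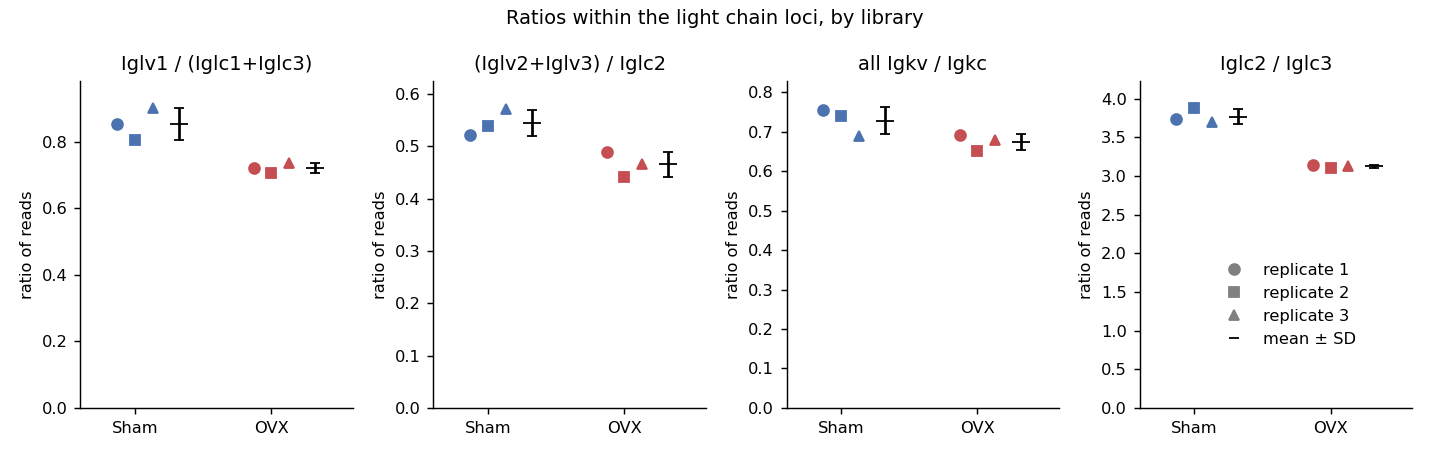
Ratios of reads within a library for Sham (blue) and OVX (red), with mean ± SD in black and linear axes from 0. From left to right, Iglv1 over Iglc1 plus Iglc3, Iglv2 plus Iglv3 over Iglc2, all Igkv over Igkc, and Iglc2 over Iglc3, where the OVX libraries lie below the Sham libraries except for all Igkv over Igkc, where OVX replicate 1 (0.691) lies just above Sham replicate 3 (0.689).

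The joining segments are short pieces between variable and constant genes. The 5 kappa segments Igkj1 to Igkj5 were counted with 312 to 1658 reads per library, and their log2 fold changes lay between -0.053 for Igkj2 and 0.16 for Igkj1, with overlapping groups. Summed, they had 0.0893, 0.0635 and 0.0586 reads per read of Igkc in the Sham libraries and 0.0949, 0.0798 and 0.0815 in the OVX libraries, which overlapped. Iglj1 had 198 to 361 reads per library, and its ratio to Iglc1 was 0.0323 to 0.0472 in Sham and 0.0510 to 0.0582 in OVX, without overlap. The ratios of joining segments to constant genes were not planned and were not tested. Iglj2, the segment next to the abundant Iglc2, was listed at 0 reads in every library, which allows a share of up to 1.26e-05% of the counts, by counting error only, in the smallest library. The pseudogene Iglc4 had at most 37 reads and Iglj4 at most 3. Of the 11 other light chain locus genes 9 were tested, 6 of them above and 3 below 0, the median being 0.048, and none was called or had an unadjusted p-value under 0.05.

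Light chains pair with heavy chains, of which Ighm, the constant gene of IgM, was the most abundant here. Ighm had 5876 to 6555 CPM in Sham and 6148 to 7114 CPM in OVX and a log2 fold change of 0.082 (SE 0.099). Igkc reads per Ighm read were 0.267, 0.528 and 0.408 in the Sham libraries and 0.339, 0.296 and 0.286 in the OVX libraries (exact permutation p = 0.4). The summed lambda constant reads per Ighm read were 0.0816, 0.114 and 0.0979 in the Sham libraries and 0.0677, 0.0924 and 0.0783 in the OVX libraries (p = 0.2 in the same exact test). Both had the same adjusted p of 0.4 over the 4 ratios to heavy and surrogate chains. Thus the OVX libraries held less light chain per Ighm on average, by log2 differences of -0.33 for kappa and -0.30 for lambda, with standard errors of 0.30 and 0.19. Without Sham replicate 2 these were -0.11 and -0.18, and without Sham replicate 1 the kappa value was -0.60.

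The 2 libraries with the most Igkc also had the most Igha and Jchain, genes that plasma cells express strongly. Igha, the constant gene of IgA, had 316, 2113 and 1854 CPM in the Sham libraries and 908, 314 and 190.3 CPM in the OVX libraries. Jchain, which links IgA and IgM into polymers in plasma cells, had 112, 641 and 516 CPM in the Sham libraries and 257, 105 and 71.3 CPM in the OVX libraries. Sham replicates 2 and 3 were the 2 highest libraries for Igha, Jchain and Igkc, while the summed lambda constant genes, with 535, 672 and 620 CPM in the Sham libraries and 416, 657 and 517 CPM in the OVX libraries, had OVX replicate 2 in second place. OVX replicate 1 followed them for Igha and Jchain and had the lowest lambda sum. Of the 12 plasma cell genes none was called, with 7 below and 5 above 0 and a median log2 fold change of -0.14, and their summed share of the counts was 0.158% to 0.181% in OVX and 0.169% to 0.211% in Sham. The most abundant of them, Irf4, which is also in the list for recombination and editing below, had a log2 fold change of 0.20 and Jchain -1.55. The log2 fold changes of the 12 genes ran from -1.55 to 0.28. Near the ends of this range, Sdc1 (CD138) had 0.28, with a mean of 69.4 CPM in Sham and 84.3 in OVX. Tnfrsf17, near 0 with at most 1.13 CPM, had -1.33. Neither was called, both were chosen after their values were seen, and the part of plasma cells in the light chain levels was not tested.

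The other switched heavy chains varied more between libraries than the light chains. Ighg1 had 19.0, 99.1 and 53.6 CPM in the Sham libraries and 17.0, 9.56 and 12.2 CPM in the OVX libraries, and was the only 1 of 7 heavy chain genes tested without overlap between groups, against 4.12% of all genes separated in this direction (log2 fold change -2.15, SE 0.55, adjusted p of 0.811 by edgeR). Of the 8 heavy chain constant genes 7 were tested, with 6 below 0 and 1 above, none called and a median of -1.28. The median was -0.67 without Sham replicate 2 and -2.08 without OVX replicate 1. Ighd, found on mature naive B cells, had 1012 CPM in Sham replicate 2 and 425 to 546 CPM in the other libraries. The 12 mature B cell genes held 0.342% to 0.677% of the counts in Sham and 0.372% to 0.402% in OVX. Their median log2 fold change was -0.33, and it was 0.11 without Sham replicate 2. None of them was called.

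**Figure D4:**
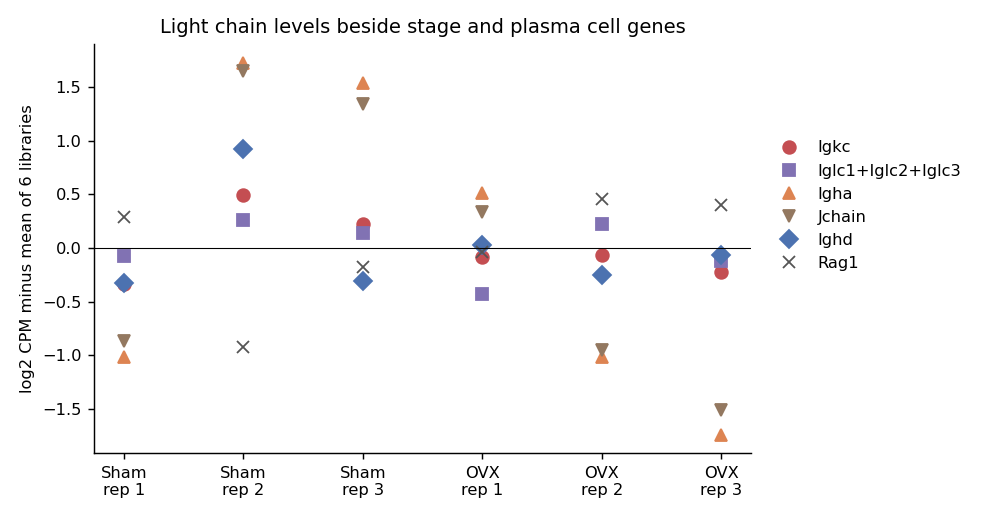
Level of Igkc, the summed lambda constant genes, Igha, Jchain, Ighd and Rag1 in each library, as log2 CPM minus the gene's mean over the 6 libraries, with 1 symbol per gene. Sham replicates 2 and 3 are the highest libraries for Igkc, Igha and Jchain, and OVX replicate 1 is the lowest for the lambda sum.

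The surrogate light chain precedes the light chain in development and is built from Igll1 (lambda5) and Vpreb1 or Vpreb2. Igll1 had 287, 229 and 162 CPM in the Sham libraries and 237, 248 and 308 CPM in the OVX libraries, with a log2 fold change of 0.23 (SE 0.21). Over Igll1, Vpreb1 and Vpreb2 together, Igkc had 3.40, 7.92 and 9.53 reads per read in the Sham libraries and 5.26, 4.99 and 3.58 in the OVX libraries. The spread was largest within Sham, whose replicate 1 had the lowest of the 6 ratios and replicate 3 the highest (exact permutation p = 0.4). For the lambda constant genes the same ratio was 1.04, 1.72 and 2.29 in the Sham libraries and 1.05, 1.56 and 0.980 in the OVX libraries (p = 0.3 in the exact test). The log2 differences of -0.48 for kappa and -0.45 for lambda were both -0.19 without Sham replicate 3, and -0.93 and -0.76 without Sham replicate 1. The surrogate chain list held 4 genes, as it counted Vpreb3 beside Igll1, Vpreb1 and Vpreb2. Vpreb3 had the highest log2 fold change, 0.41, while Vpreb1 had 0.17 and Vpreb2 -0.062. Of the 4 genes 3 were above 0, none was called, and the median of 0.20 was -0.017 without Sham replicate 3.

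Opening and cutting of the light chain loci requires the RAG recombinase and factors that act on the kappa enhancers. Of 22 genes for light chain recombination and editing 18 had log2 fold changes above 0 and 4 below, with a median of 0.19 against -0.0081 for all genes, and none was called. Without Sham replicate 2 the median was 0.069. Rag1 had 1350, 581 and 975 CPM in the Sham libraries and 1074, 1516 and 1453 CPM in the OVX libraries, a log2 fold change of 0.48 (SE 0.29). Its lowest library was Sham replicate 2, where Igkc was highest. Rag2 had a log2 fold change of 0.52 (SE 0.30) and Irf4, which acts on the kappa enhancers, 0.20 (0.13). Only Ebf1, a factor that sets B cell identity, had an unadjusted p-value under 0.05, with 382 to 521 CPM in Sham and 550.2 to 595 CPM in OVX (log2 fold change 0.35, SE 0.12, adjusted p of 0.811 by edgeR). Of all genes tested 3.75% had such a p-value. In this list 1 gene, Ebf1, was separated upwards in OVX and 1, Xrcc5, downwards (log2 fold change -0.14). Of all genes tested 4.33% were separated upwards and 4.12% downwards. The 12 genes of pro-B and pre-B cells held 0.163% to 0.294% of the counts in Sham and 0.235% to 0.310% in OVX. Of them 10 were above 0, against 7371 of all 15305 genes tested, and none was called. Their median log2 fold change of 0.23 was 0.084 without Sham replicate 3. This list is not independent of those above, as Igll1, Vpreb1, Vpreb2, Rag1 and Rag2 are in it too. Other lists also overlap: Irf4 is also among the plasma cell genes and Ighd among the mature B cell genes. Spib, Pax5, Ebf1, Cd79a and Cd79b are also among the general B cell genes.

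**Figure D5:**
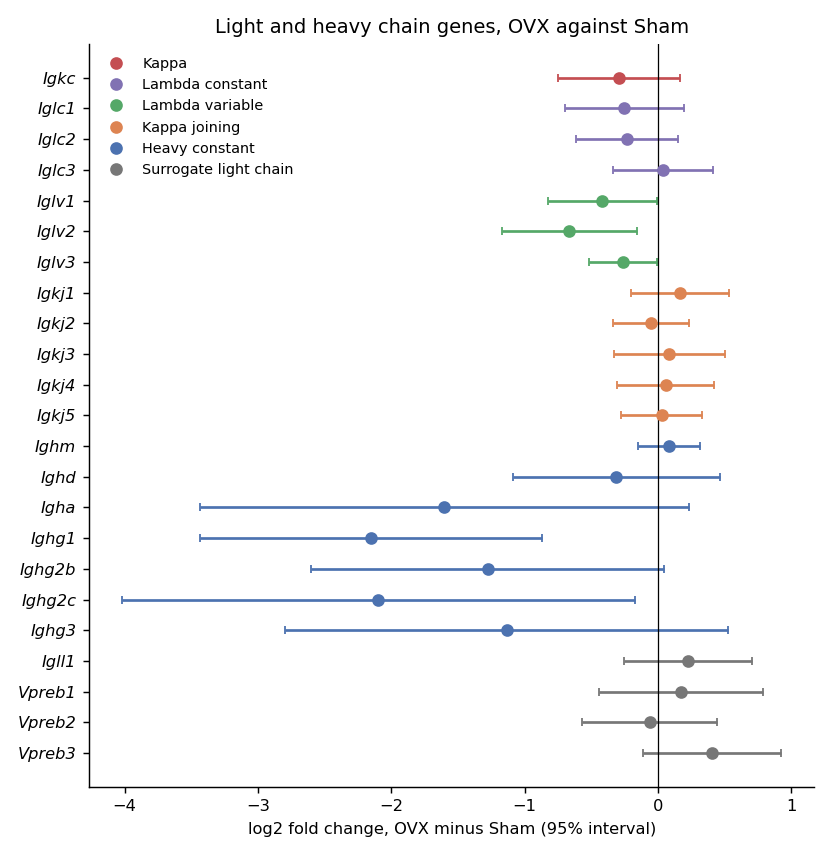
Log2 fold change of OVX against Sham with its 95% interval from edgeR's quasi-likelihood fit, for the kappa constant gene, lambda constant and variable genes, kappa joining segments, heavy chain constant genes and surrogate light chain genes. Of the light chain genes, the intervals of Iglv1, Iglv2 and Iglv3 lie below 0 (for Iglv2 -1.17 to -0.16), and no gene passed the adjusted threshold.

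Among 9131 genes outside the immunoglobulin loci with a mean of at least 10 CPM, the 5 whose log2 level followed Igkc most closely over the 6 libraries were Kctd13, Samd9l, Ankrd44, Suco and Kdm7a, with Pearson's r of 0.997, 0.995, 0.992, 0.991 and 0.991. Samd9l, an interferon-induced gene, had 261, 455 and 391 CPM in the Sham libraries and 308, 327 and 277 CPM in the OVX libraries, the same order of libraries as Igkc. For the summed lambda constant genes the closest were Ap5s1, Dmxl1, Rrn3, Tmx2 and Plcxd2, with r from 0.971 to 0.984. No gene was among the closest 5 of both. With 6 libraries and so many genes the highest values of r are near 1 by selection, so they are given as a description only.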

How the data were processed

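The table deposited by the authors gives counts, not normalized, for each Ensembl gene in 6 RNA-seq libraries (3 OVX, 3 Sham). The submitters' processing notes name CASAVA, Bowtie 0.12.2 and the build mm10. The counting tool, the strand setting and the handling of reads that match several genes are not given in the sources used here, and such reads could move counts between similar light chain genes. Symbols were matched to 54409 of 54532 identifiers, and coordinates are those of RefSeq on GRCm38.p6, the assembly of mm10. The HIF-1α ChIP library and its input were not analysed here.

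Tests of the counts used edgeR 4.0.16 under R 4.3.3 (filterByExpr, TMM, quasi-likelihood test, Benjamini-Hochberg adjustment over 15305 genes, threshold 0.05), and the fit was tested on simulated data. The simulation drew each gene on its own from the fitted spread, so it did not cover shifts that many genes share within a library. Standard errors of fold changes were taken as |log2 fold change| over the root of the F statistic. DESeq2 1.42.0 and limma 3.58.1 were alternatives, beside other scalings and filters, each library left out and the replicate number as a block. Ratios within a library were compared on the log2 scale by two-sided exact permutation tests (scipy 1.17.1). Standard errors of ratio differences come from the group variances. Wilson intervals and the limit of 3 counts at a count of 0 cover counting error only. Every pair of libraries differed by at least 8.71 times the sampling noise (chi-square over its degrees of freedom), so each was taken as a separate library. By this measure Sham replicate 1 was nearer to OVX replicates 1, 2 and 3 (11.03, 8.71 and 11.87) than to Sham replicates 2 and 3 (52.54 and 31.44). How this bears on the comparisons of OVX with Sham was not tested.

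The 7 genes and the 13 lists beside them were chosen with earlier results of these data known. Named are the 7 genes, members of lists for light chain loci, heavy chain constants, surrogate chain, recombination and folding, up to 3 most abundant genes of each marker list, and the 5 genes outside the immunoglobulin loci with the closest profile. Ratios tested after the planned ones are in the text as such. The ratios of Iglc3 and Iglc2 to Iglc1, Iglv2 to Iglv3, the kappa joining segments to Igkc and Iglj1 to Iglc1 were not planned. They are given as descriptions without a test.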

Additional observations from a re-analysis of the deposited data

How the results depend on the processing

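None of the 7 light chain genes and none of the listed genes was called in any of the 16 alternative fits, DESeq2, limma-voom and the fits without 1 library included. Over these fits the lowest adjusted p-value of a light chain gene was 0.273, without Sham replicate 1, where Igkc had a log2 fold change of -0.49. Of 112 alternative log2 fold changes of the 7 genes 109 kept their direction, and the 3 that did not were of Iglc3, at -0.065 with scaling on general B cell genes, -0.060 without Sham replicate 1 and -0.12 without OVX replicate 2, while without OVX replicate 1 Iglc3 had 0.17. That scaling shifted the median of all genes by -0.091, and the other scalings by at most -0.021. With it, 70 genes were higher and 613 lower at unadjusted p under 0.05, against 225 and 349 with TMM.

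The kappa to lambda difference of -0.034 on the log2 scale had no stable direction. It was 0.022 with constant, joining and variable genes of each locus summed, 0.089 with variable genes, 0.034 against Iglc1 alone, and ran from -0.22 without OVX replicate 1 to 0.11 without OVX replicate 2. The difference in Iglv2 plus Iglv3 over Iglv1 ran from -0.11 to 0.074 when 1 library was left out, and that in Iglv3 over Iglc2 from -0.12 to 0.080. All other ratios kept their direction in every alternative run on them, and Iglv1 over Iglc1 plus Iglc3 ran from -0.28 to -0.20. The causes were not tested.

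No pairing by replicate number was seen: across genes, the deviations of same-numbered libraries correlated at -0.517, -0.298 and -0.391. Differently numbered libraries ran from -0.243 for Sham replicate 3 with OVX replicate 2 to 0.567 for Sham replicate 3 with OVX replicate 1. Sham replicate 1 with OVX replicate 2 had 0.509. Whether libraries were paired in another order was not tested. With the replicate block 0 of the 7 genes were called, and Iglv2 had a log2 fold change of -0.67 with an adjusted p of 0.971 in edgeR's quasi-likelihood test. Unadjusted p under 0.05 was met by 206 genes with the block and 574 without it, 1269 of 27416 genes without the filter on low counts, and 233 to 2698 in the fits without 1 library, with the most without Sham replicate 1. With 3 complete pairs the block leaves the kappa to lambda difference at -0.034 by arithmetic.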

Other observations

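Light chains are folded and assembled with heavy chains in the endoplasmic reticulum. Of 12 genes for receptor partners and folding, none was called, with 4 above and 8 below 0 and a median log2 fold change of -0.050. Cd79a, a signal chain of the receptor, had 1548 to 1775 CPM in Sham and 1549 to 1883 CPM in OVX, and Hspa5 (BiP), which holds heavy chains until a light chain joins, had 431 to 476 CPM in Sham and 420 to 477 CPM in OVX. These levels varied less between libraries than that of Igkc. For Pdia6 and Canx, a disulphide isomerase and a lectin chaperone, every OVX library was lower than every Sham library, with log2 fold changes of -0.12 (standard error 0.075) and -0.079 (0.063) and unadjusted p-values of 0.139 and 0.253 in edgeR's fit. Of all genes tested 4.12% had such a separation.

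Marker genes of other cells differed between libraries without a called gene. The 12 neutrophil genes were all below 0. Their median was -1.26 on the log2 scale, and leaving out Sham replicate 3 gave -0.51, OVX replicate 1 -2.20. The most abundant, S100a9, had 2488 CPM in Sham replicate 3. The 10 monocyte and macrophage genes had a median of -0.36, which was 0.26 without Sham replicate 2 and -1.13 without OVX replicate 3, and Vcam1, the most abundant, had 590.3 CPM in Sham replicate 2. The 9 erythroid genes had a median of -0.86, which was -0.46 without Sham replicate 2. The 10 T and NK cell genes had -1.35, which was -0.85 without Sham replicate 3 and -2.10 without OVX replicate 1, and were at no more than 0.00485% of the counts in a library. The 12 general B cell genes had a median of 0.10, with Spib and Cd79a among the most abundant.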
